A study of Mus musculus with 10 samples.

Results

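The endoplasmic reticulum (ER) module examined here holds 41 genes, given as a list of gene symbols that covers ER chaperones, the unfolded protein response and vesicle export from the ER. All 41 were found among the 25239 gene symbols of the deposited count table, and all 41 passed the filter on low counts, which kept 15416 genes. The study compared 2 populations of calvarial stem cells, isolated by flow sorting from skull sutures of 7-day-old (P7) mice. DDR2-plus, with 5 libraries, is named for the collagen receptor DDR2, and PSC, also with 5 libraries, is left as a bare abbreviation in the labels. The labels give the genotype of every library as WT, whereas the protocol names Ctsk-Cre mice (a Cre recombinase under the promoter of the cathepsin K gene), and it states 5 animals without tying them to libraries. P-values therefore measure only the spread between these libraries, which may be technical in part.

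Proteins that leave the cell are threaded into the ER, where the Hsp70-type chaperone BiP, lectin chaperones and disulfide isomerases fold them. Unfolded protein is sensed by ATF6, IRE1 and PERK, which raise chaperone genes, splice Xbp1 mRNA and favour translation of ATF4. Folded cargo leaves in vesicles coated by COPII, and chaperones that escape are brought back by KDEL receptors. Skeletal cells depend on these steps because they export large amounts of procollagen, which needs the cargo receptor TANGO1 and particular SEC23 and SEC24 coat subunits.

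Total counts ranged from 43419129 to 62021992 per library, so that 1 count was worth 0.0146 to 0.0249 CPM (counts scaled by library total and the TMM factors of edgeR, to the usual common total of the unit). Reads from amplified cDNA can repeat a molecule. The ER module took 1.18% ± 0.0376 of all counts in DDR2-plus and 0.977% ± 0.0233 in PSC (SD over 5 libraries each; two-sided p = 0.00794 by exact permutation, which is the lower limit for groups of 5), while the type I collagen genes Col1a1 and Col1a2 took 5.97% ± 1.46 and 22.8% ± 0.832. On the TMM scale, which allows for such a shift, the module summed to 10774 ± 498.8 CPM and 10734 ± 255.7 CPM. Ddr2 mRNA was 1.36-fold lower in the population named for it (edgeR adjusted p = 0.000165). Cells were sorted on protein, which mRNA need not follow, and the part of this in the difference was not tested. Ctsk, the cathepsin K gene, was 2.74-fold lower in DDR2-plus, at 107 ± 15.2 against 294 ± 15.0 CPM (edgeR adjusted p = 4.36e-07).

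Markers of the suture mesenchyme were present in both populations, with 5 of 7 lower and 0 higher in DDR2-plus, and all 6 cartilage markers were higher there (summed level 77639 to 108156 CPM against 9149.6 to 22674 CPM in PSC). Of 7 neuron and photoreceptor markers, 6 were higher in DDR2-plus, with sums of 117 to 237 CPM against 3.96 to 10.1 CPM, and Slc17a6 had 0 counts in every PSC library. Immune markers summed to 12.7 to 25.5 and 6.74 to 18.2 CPM in DDR2-plus and PSC, with 1 of 4 tested markers higher. That marker was Lyz2, whose libraries overlapped between the groups (edgeR adjusted p = 0.0494). Over all tested genes, 20.1% were called higher and 19.0% lower. Endothelial markers summed to 21.6 to 37.8 and 17.9 to 40.4 CPM, but their members went both ways, with Pecam1 and Kdr higher and Cdh5 and Tek lower in DDR2-plus. Osteoclast markers summed to 552 to 859 and 145 to 386 CPM, a sum carried by Mmp9, which was higher, while Acp5, the other marker tested, was 1.87-fold lower (edgeR adjusted p = 7.25e-05). The part of these cells in the results below was not tested. In bulk libraries, fewer cells that use a gene and less RNA of it per cell cannot be told apart.

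Between the populations, 12 of the 41 genes were higher in DDR2-plus (29.3%, against 20.1% of all tested genes) and 11 were lower (26.8%, against 19.0%), while 18 did not pass the test; 39.1% of all tested genes were called in either direction (edgeR's quasi-likelihood test, Benjamini-Hochberg adjusted over all tested genes, threshold 0.05). Chaperones and isomerases, in arms of 9, 2 and 4 genes, gave 7 of the 12 higher genes and 1 of the 11 lower ones. Export genes (coat subunits and TANGO1) and KDEL receptors, in arms of 10 and 3 genes, gave 7 of the 11 lower genes and 2 of the 12 higher ones. Part of such shares follows from the number of genes in these arms. The libraries of the groups did not overlap for 9 higher and 10 lower genes, where 15.6% and 14.6% of all tested genes did so. Changes were small, with 1 gene at least 2-fold higher, Creb3l2, and 1 at least 2-fold lower, Creb3l1, against 9.94% and 6.01% of all tested genes. The median log2 fold change of the module was 0.07, beside 0.04 for all tested genes.

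**Figure D1:**
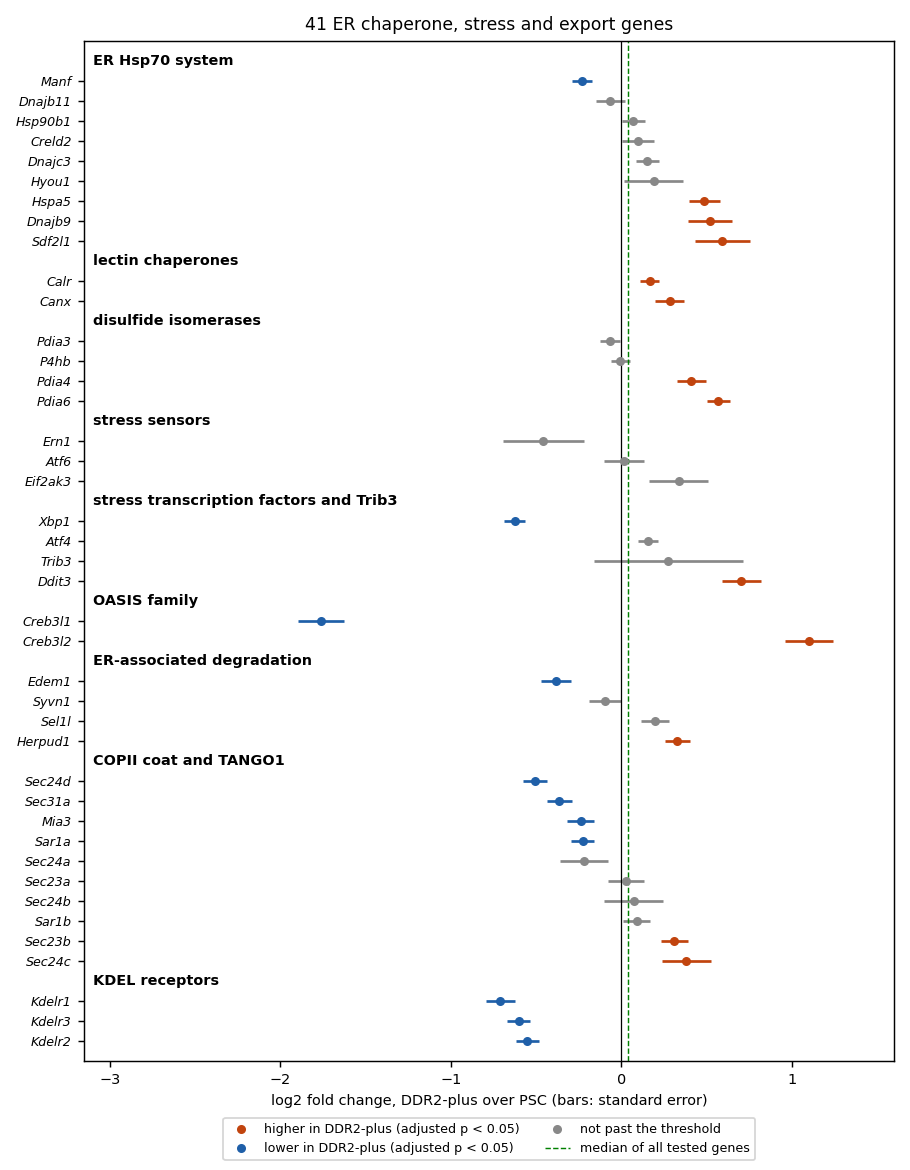
Log2 fold change of each of the 41 genes, DDR2-plus over PSC (x axis), grouped by role, with the standard error as bars and the call as colour. The chaperone and isomerase rows hold 7 higher genes and 1 lower one, the 3 KDEL receptors are all lower, and Creb3l1 and Creb3l2 lie farthest out.

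With no factor for composition, that is with library size alone, every fold change moved up by about the same amount and the median of all tested genes moved from 0.04 to 0.31 on the log2 scale. The module then held 23 higher and 6 lower genes, and the tested genes as a whole 5421 higher and 1538 lower, in place of 3096 and 2926. A ratio of members within a library does not depend on this choice. Calls that it changes are given with the genes.

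Hspa5, which encodes BiP, the Hsp70 of the ER, was among the highest of the module per length, at 305 and 218 RPKM (CPM divided by exonic length in kilobases, means of DDR2-plus and PSC). Its level in DDR2-plus libraries 1 to 5 was 1355, 1415, 1072, 1325 and 1291 CPM, and in PSC libraries 1 to 5 it was 943, 935, 770, 972 and 990 CPM. Every DDR2-plus library was above every PSC library, and library 3 was the lowest of its group in both populations. Hspa5 was 1.40-fold higher in DDR2-plus (log2 fold change 0.49, SE 0.0893; edgeR adjusted p = 0.000873).

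The cofactors of BiP were split. With Hspa5, the BiP system held 3 higher and 1 lower of 9 genes, beside 20.1% and 19.0% of all tested genes. Dnajb9, a J-domain protein that binds BiP clients and the sensor IRE1, was at 60.2, 61.6, 49.4, 61.8 and 49.1 CPM in the DDR2-plus libraries and at 32.7, 43.6, 31.1, 44.3 and 45.3 CPM in PSC, 1.43-fold higher without overlap (edgeR adjusted p = 0.00597). Sdf2l1, which works with the J-domain protein of Dnajb11, was 1.51-fold higher (edgeR adjusted p = 0.0114), also without overlap, with 19.1 to 24.0 CPM against 9.70 to 18.2 CPM. When only the libraries numbered 1, 2 and 4 were compared, it no longer passed (edgeR adjusted p = 0.117). Manf, a secreted factor that stabilises BiP and its clients, went the other way, at 104 to 113 CPM against 120 to 135 CPM, 1.17-fold lower (edgeR adjusted p = 0.00749). Under library size alone Manf turned to a log2 fold change of 0.04 (edgeR adjusted p = 0.616), and with numbers 1, 2 and 4 only its edgeR adjusted p was 0.0572.

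The other 5 genes of the BiP system did not pass. Hsp90b1, the ER form of Hsp90, was at 647 ± 43.8 and 616 ± 26.2 CPM, and Dnajb11, a J-domain cochaperone, at 111 ± 5.89 and 117 ± 14.4 CPM, DDR2-plus given first (SD, n = 5 each; edgeR adjusted p = 0.425 and 0.587). Dnajc3, which also inhibits PERK, was at 155 ± 10.2 CPM against 140 ± 7.60 CPM, Creld2 at 77.9 ± 2.90 and 72.8 ± 10.1 CPM, and Hyou1, the exchange factor of BiP, at 23.4 ± 4.03 and 20.5 ± 5.28 CPM. Of its exonic bases, Hsp90b1 shares 10.3% with another annotated gene, so some of its counts may belong to that gene. Scaled by library size alone, 7 of the 9 genes of the BiP system passed as higher and 0 as lower. That scale moved all genes up, with 5421 of all 15416 tested genes higher and 1538 lower.

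Calreticulin and calnexin hold glycoproteins by their sugar chains while they fold, the first in the lumen and the second in the membrane. Calr was at 823 to 887 CPM in DDR2-plus and 726 to 795 CPM in PSC, 1.12-fold higher without overlap (edgeR adjusted p = 0.0303). The margin was thin, since the call was lost without DDR2-plus 1, 2, 4 or 5, PSC 2 or PSC 3 (edgeR adjusted p between 0.0529 and 0.0804). With numbers 1, 2 and 4 only, Calr did not pass either (edgeR adjusted p = 0.089). Canx was at 415, 418, 320, 389 and 340 CPM against 288, 340, 306, 305 and 306 CPM, 1.22-fold higher, and PSC 2 lay level with DDR2-plus 5 and above DDR2-plus 3 (edgeR adjusted p = 0.0186). Without DDR2-plus 1 or 2 the edgeR adjusted p of Canx was 0.0534 or 0.0573.

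Among the disulfide isomerases, which form and reshuffle disulfide bonds, Pdia6 showed the firmest difference. It was at 697, 717, 617, 744 and 734 CPM in the DDR2-plus libraries and 498, 467, 440, 469 and 493 CPM in PSC. Every DDR2-plus library was above every PSC library. Pdia6 was 1.48-fold higher (log2 fold change 0.57, SE 0.0677; edgeR adjusted p = 3.18e-05). Pdia4, a relative with an extra thioredoxin-like domain, was at 314 to 356 CPM against 223 to 298 CPM, 1.33-fold higher without overlap (edgeR adjusted p = 0.00165). P4hb, the isomerase that is also the beta subunit of the collagen prolyl 4-hydroxylase, had the highest level per length of the module, 558 and 561 RPKM. Its 10 libraries lay between 1479 and 1667 CPM with full overlap (edgeR adjusted p = 0.945). Pdia3, the partner of calnexin and calreticulin, averaged 886 ± 44.2 and 928 ± 37.2 CPM with no call (edgeR adjusted p = 0.412). Under library size alone P4hb and Pdia3 passed as higher, at 0.26 and 0.20 on the log2 scale.

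The promoters of many chaperone genes carry an ER stress response element (ERSE), to which NF-Y and ATF6 or XBP1 bind. RefSeq promoter windows (GRCm38.p6, the assembly also called mm10), from 250 bases before to 50 after the start, were matched by symbol for 36 of the 41 members; Atf6, Creb3l1, Hyou1, Kdelr2 and Manf were not matched. CCAAT and CCACG with 9 bases of any kind between them, on either strand, were in the windows of 8 members, 22.2% of those matched, and of 0.161% of the 18651 genes of the table with a window. They are shown because most of these genes belong to the chaperone groups above. Each is written in the direction of the motif, with its fixed letters in capitals. No match overlapped another motif.
Hspa5 (chr2:34772025-34772043, plus strand): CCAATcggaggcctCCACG
Pdia6 (chr12:17266491-17266509, plus strand): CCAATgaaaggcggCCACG
Canx (chr11:50325800-50325818, minus strand): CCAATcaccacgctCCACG
Calr (chr8:84847075-84847093, plus strand): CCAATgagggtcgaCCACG
Dnajc3 (chr14:118937827-118937845, plus strand): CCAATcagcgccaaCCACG
Creld2 (chr15:88819520-88819538, minus strand): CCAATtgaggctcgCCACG
Syvn1 (chr19:6046532-6046550, plus strand): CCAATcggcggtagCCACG
Hsp90b1, upstream copy (chr10:86705638-86705656, minus strand): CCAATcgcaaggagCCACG
Hsp90b1, downstream copy (chr10:86705533-86705551, plus strand): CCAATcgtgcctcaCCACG

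Of the 8 genes with an ERSE, Hspa5, Pdia6, Canx and Calr were higher in DDR2-plus and 0 were lower, beside 20.1% and 19.0% of all tested genes. The median log2 fold change of the 8 was 0.16. Canx and Calr lost their calls in 2 and 7 of 20 alternative settings, and any tie between motif and call was not tested. The other 4, Dnajc3, Creld2, Hsp90b1 and Syvn1, did not pass. The 23 matched members with none of the motifs searched held 7 higher and 6 lower genes, with a median of 0.09. Dnajb9, Sdf2l1 and Pdia4 were higher without these letters in the window. In longer context, the upstream stretches of a disulfide isomerase and a lectin chaperone read as follows on the strand of the gene, with the ERSE letters in capitals.
Pdia6 (chr12:17266339-17266544, plus strand): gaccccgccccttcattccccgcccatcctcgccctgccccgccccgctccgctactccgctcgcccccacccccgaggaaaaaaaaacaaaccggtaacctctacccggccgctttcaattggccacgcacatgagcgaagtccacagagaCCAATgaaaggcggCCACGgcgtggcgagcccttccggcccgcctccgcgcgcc
Canx (chr11:50325674-50325923, minus strand): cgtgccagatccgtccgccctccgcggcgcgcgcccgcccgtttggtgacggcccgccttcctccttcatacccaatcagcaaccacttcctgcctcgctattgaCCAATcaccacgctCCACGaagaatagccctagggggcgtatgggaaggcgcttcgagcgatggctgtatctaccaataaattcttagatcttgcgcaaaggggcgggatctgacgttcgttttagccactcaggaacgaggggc

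**Figure D2:**
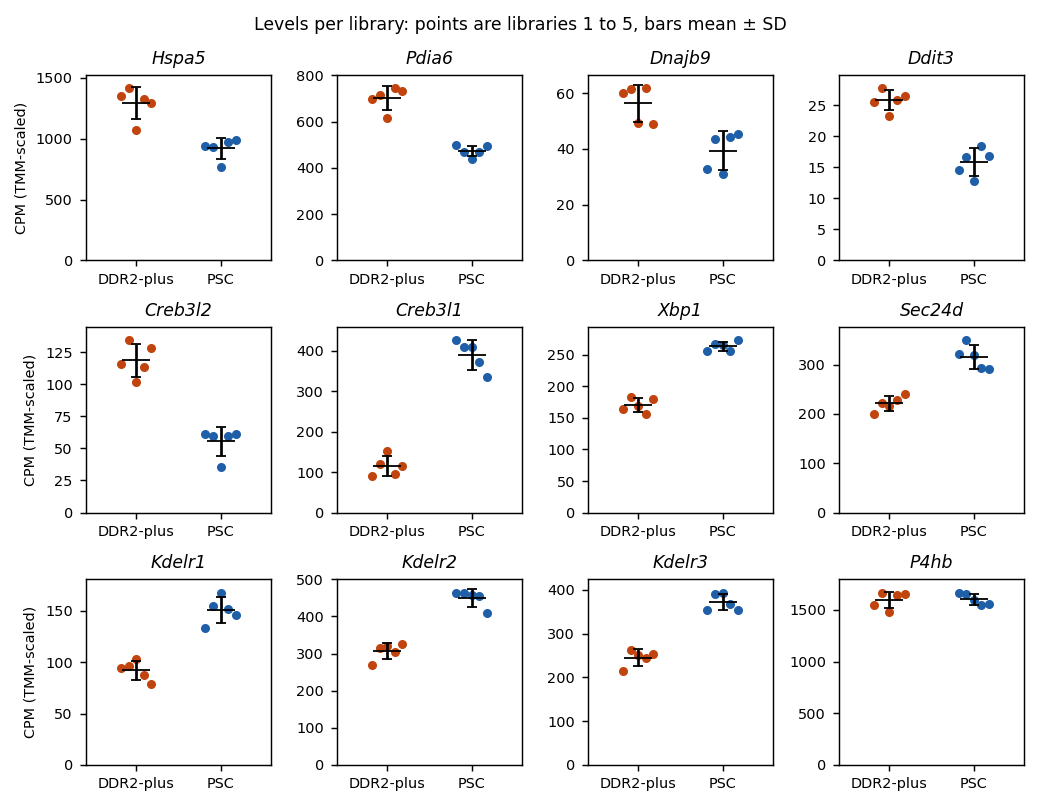
CPM per library (y axis, from 0) for 12 of the 41 genes in DDR2-plus and PSC, with each of the 5 libraries as a point and mean ± SD as bars. Hspa5, Pdia6, Dnajb9, Ddit3 and Creb3l2 lie higher in every DDR2-plus library, Creb3l1, Xbp1, Sec24d and the KDEL receptors lie lower, and P4hb overlaps.

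None of the genes of the 3 stress sensors passed the test. Ern1, which encodes the kinase and nuclease IRE1, was the lowest, at 4.40 to 10.3 CPM in DDR2-plus and 7.44 to 12.2 CPM in PSC (log2 fold change -0.46, SE 0.238; edgeR adjusted p = 0.148). Eif2ak3, which encodes the kinase PERK, was at 47.9 to 65.4 CPM against 27.0 to 59.3 CPM (edgeR adjusted p = 0.143). Eif2ak3 passed as higher without PSC 4 (edgeR adjusted p = 0.0364) and with library size alone (log2 fold change 0.61, edgeR adjusted p = 0.0097). Atf6, the sensor that is itself cleaved into a transcription factor, was at 32.3 ± 5.18 and 32.0 ± 2.78 CPM (SD, n = 5 each). At unadjusted p under 0.05, 0 of these 3 genes were called in edgeR.

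Downstream of the sensors, Xbp1 and Ddit3 moved in opposite directions. Xbp1, whose mRNA is spliced by IRE1 into that of an active factor, was at 164, 184, 169, 156 and 180 CPM in the DDR2-plus libraries and at 256, 268, 265, 256 and 273 CPM in PSC. All 5 DDR2-plus libraries were below all PSC libraries, and both groups were narrow. Xbp1 was 1.54-fold lower (log2 fold change -0.63, SE 0.0629; edgeR adjusted p = 8.06e-06). Counts per gene do not part spliced from unspliced Xbp1.

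Ddit3, which encodes CHOP, a factor of the PERK branch tied to cell death, was at 25.5, 27.7, 23.3, 25.9 and 26.4 CPM in the DDR2-plus libraries and 14.6, 16.6, 12.7, 18.4 and 16.8 CPM in PSC. No library of one group reached the other, and Ddit3 was 1.63-fold higher (log2 fold change 0.70, SE 0.116; edgeR adjusted p = 0.000394). Atf4, the factor upstream of it, was at 246 to 275 CPM against 224 to 246 CPM and missed the threshold (log2 fold change 0.15, SE 0.0587; edgeR adjusted p = 0.0547). Over the alternative settings Atf4 passed as higher in 7 of 20, among them library size alone (log2 fold change 0.42, edgeR adjusted p = 0.000141), DESeq2 (adjusted p = 0.0102) and edgeR without PSC 5 (adjusted p = 0.0444). Trib3, a pseudokinase induced by CHOP, was at 3.76 to 5.04 CPM in DDR2-plus and 0.630 to 5.60 CPM in PSC, where PSC 2 was far below the rest, and did not pass (edgeR adjusted p = 0.661).

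The largest differences of the module were in the OASIS family, ER-membrane transcription factors that are cleaved like ATF6. Creb3l1, the factor OASIS itself, which activates type I collagen in osteoblasts, lies on mm10 chromosome 2 (91982328 to 92024502, minus strand). It was at 90.7, 121, 152, 95.0 and 116 CPM in the DDR2-plus libraries and at 425, 409, 409, 371 and 334 CPM in PSC. The highest DDR2-plus library, number 3, was still under the lowest PSC library, number 5. Creb3l1 was 3.39-fold lower in DDR2-plus (log2 fold change -1.76, SE 0.133; edgeR adjusted p = 1.12e-06).

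Creb3l2, also named BBF2H7, is known for its need in chondrocytes, where it raises Sec23a. The gene, on chromosome 6 (37327255 to 37442146, minus strand), was at 116, 134, 102, 114 and 128 CPM in the DDR2-plus libraries and 61.0, 59.7, 35.5, 60.0 and 60.8 CPM in PSC, with PSC 3 apart from its group. Creb3l2 was 2.14-fold higher (SE of the log2 fold change 0.14; edgeR adjusted p = 5.39e-05). Both calls were the same in all 20 alternative settings.

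A ratio of 2 genes within a library does not depend on scaling, and 10 pairs of related genes were compared this way. The log2 ratio of Creb3l1 to Creb3l2 counts was -0.35, -0.15, 0.58, -0.26 and -0.14 in DDR2-plus and 2.80, 2.78, 3.52, 2.63 and 2.46 in PSC. No DDR2-plus library came near the PSC range. The mean log2 ratio differed by -2.90, a factor of 7.48 (exact permutation test, two-sided p = 0.00794, adjusted p = 0.0265 over the 10 pairs). Per length, Creb3l1 stood at 44.2 and Creb3l2 at 16.3 RPKM in DDR2-plus, and at 150 and 7.61 RPKM in PSC, so that Creb3l1 had the higher level per length in both.

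Of 4 genes of ER-associated degradation, which returns misfolded protein to the cytosol, 1 was higher, 1 was lower and 2 had no call. This was near the 20.1% higher and 19.0% lower of all tested genes. Herpud1, which organises the retrotranslocation complex, was at 175 to 205 CPM in DDR2-plus and 139 to 166 CPM in PSC, 1.26-fold higher without overlap (edgeR adjusted p = 0.00356). Edem1, a lectin that picks out mannose-trimmed glycoproteins, was at 52.8 to 65.9 CPM against 71.1 to 90.0 CPM, 1.30-fold lower without overlap (edgeR adjusted p = 0.0045). Scaled by library size alone, Edem1 no longer passed (log2 fold change -0.11, edgeR adjusted p = 0.303). The ubiquitin ligase gene Syvn1 was at 46.5 ± 4.98 and 49.8 ± 4.40 CPM, and the gene of its adaptor, Sel1l, at 187 ± 21.3 and 164 ± 8.10 CPM, both without a call (edgeR adjusted p = 0.448 and 0.0796). Sel1l passed as higher with library size alone (log2 fold change 0.46, edgeR adjusted p = 0.000362), without DDR2-plus 3 (edgeR adjusted p = 0.0151), with numbers 1, 2 and 4 only (edgeR adjusted p = 0.0281) and under DESeq2 (adjusted p = 0.0459).

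COPII coats are built in layers. The GTPase SAR1 recruits SEC23 and SEC24, the latter of which binds cargo, and SEC13 and SEC31 form the outer cage. Of the 10 genes of this arm, 4 were lower in DDR2-plus, 2 were higher and 4 did not pass. The shares over all tested genes were 19.0% lower and 20.1% higher. Sec24d, the cargo subunit whose loss impairs procollagen export and skull bone formation, was at 201, 223, 216, 229 and 241 CPM in the DDR2-plus libraries and 322, 349, 320, 293 and 291 CPM in PSC. All DDR2-plus libraries were below all PSC libraries, and Sec24d was 1.42-fold lower (log2 fold change -0.51, SE 0.0724; edgeR adjusted p = 0.000132).

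Sec31a, of the outer cage, was at 369 to 430 CPM against 452 to 557 CPM, 1.29-fold lower without overlap (edgeR adjusted p = 0.00148). Sar1a was at 392 to 444 CPM against 452 to 552 CPM, 1.17-fold lower without overlap (edgeR adjusted p = 0.0168). Mia3, which encodes TANGO1, the receptor that fits procollagen into COPII carriers, was at 109 to 133 CPM against 132 to 161 CPM, 1.18-fold lower with DDR2-plus 5 inside the PSC range (edgeR adjusted p = 0.0296). Without DDR2-plus 1, 2 or 3 or PSC 3, Mia3 did not pass (edgeR adjusted p between 0.0521 and 0.0714). Nor did it with numbers 1, 2 and 4 only (edgeR adjusted p = 0.0794). With library size alone Sec31a lost its call (log2 fold change -0.09, edgeR adjusted p = 0.269), and Sar1a and Mia3 turned to 0.04 and 0.03, whereas Sec24d stayed lower (log2 fold change -0.24, edgeR adjusted p = 0.0135).

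None of the remaining genes of the arm passed as lower. Sec23b was at 60.5 to 76.4 CPM in DDR2-plus and 54.4 to 61.4 CPM in PSC, 1.24-fold higher (edgeR adjusted p = 0.00836), with DDR2-plus 3 under PSC 4. Sec24c was at 78.1 to 109 CPM against 46.0 to 78.6 CPM, 1.30-fold higher at the edge of the threshold (edgeR adjusted p = 0.0484), a call lost in 10 of 20 alternative settings. These were the removal of any of the 5 DDR2-plus libraries or of PSC 1, 2 or 5, numbers 1, 2 and 4 only, and the removal of the type I collagen rows (edgeR adjusted p between 0.0545 and 0.143). Sec23a (155 ± 13.5 and 152 ± 23.8 CPM), Sec24a (17.7 ± 2.84 and 20.6 ± 2.77 CPM), Sec24b (33.4 to 45.8 and 25.8 to 53.2 CPM) and Sar1b (59.0 ± 5.27 and 55.4 ± 3.08 CPM) had no call. Of these, Sec23a and Sar1b passed as higher with library size alone (log2 fold changes 0.30 and 0.36, edgeR adjusted p = 0.034 and 0.0038).

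Per length, Sec24d was the highest of the 4 Sec24 genes in both populations, at 35.1 and 49.8 RPKM, followed by Sec24c at 13.8 and 10.6 RPKM, Sec24b at 6.76 and 6.43 RPKM and Sec24a at 1.66 and 1.93 RPKM. Counts of Sec24d over Sec24c were 2.57, 2.05, 2.68, 2.87 and 2.78 in DDR2-plus and 5.19, 5.02, 4.17, 3.73 and 6.33 in PSC. This ratio did not overlap between the groups and was 1.87-fold lower in DDR2-plus (exact permutation test, two-sided p = 0.00794, adjusted p = 0.0265; without DDR2-plus 2, adjusted p = 0.0529). The log2 ratios to Sec24b and Sec24a differed by -0.62 and -0.28 and did not pass the adjustment (exact permutation tests, adjusted p = 0.0635 and 0.106). Sar1a over Sar1b differed by -0.31 and Sec23a over Sec23b by -0.27 (exact permutation tests, adjusted p = 0.0595 and 0.136). Sdf2l1 over its constitutive relative Sdf2 was 0.58 higher on the log2 scale in DDR2-plus (exact permutation test, two-sided p = 0.00794, adjusted p = 0.0265), although Sdf2 shares part of its exonic bases with another gene.

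**Figure D3:**
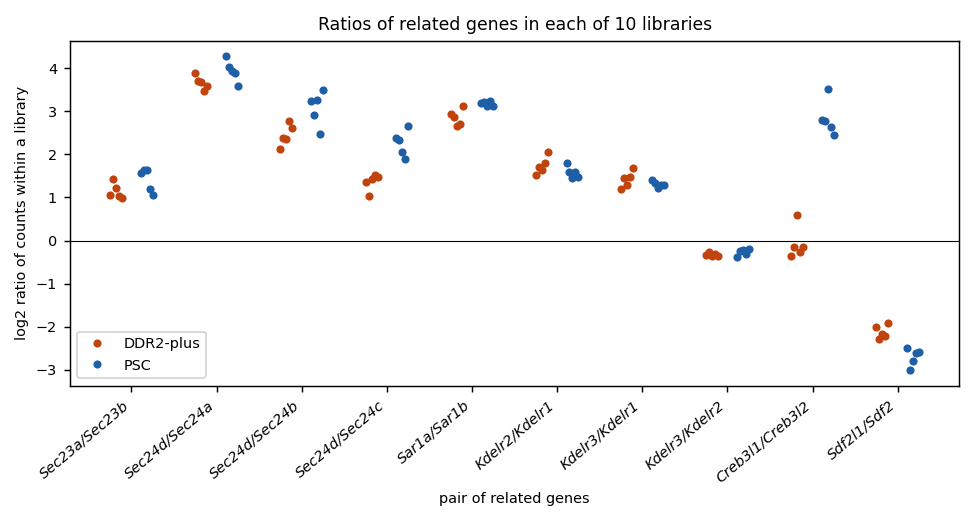
Log2 ratio of the counts of 2 related genes within each library (y axis) for 10 pairs, with each of the 5 DDR2-plus and 5 PSC libraries as a point. Creb3l1/Creb3l2, Sec24d/Sec24c and Sdf2l1/Sdf2 do not overlap between the groups, while the ratios among the KDEL receptors do.

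The KDEL receptors, which bind the C-terminal tail of escaped chaperones in the Golgi and carry them back, were the only arm with more than 2 genes in which all members moved one way. Kdelr1 was at 94.1, 96.3, 103, 88.0 and 78.8 CPM in the DDR2-plus libraries and 134, 155, 168, 152 and 146 CPM in PSC. Kdelr2 was at 269, 315, 320, 305 and 326 CPM against 464, 464, 459, 455 and 408 CPM. Kdelr3 was at 214, 263, 251, 244 and 254 CPM against 355, 392, 394, 368 and 354 CPM. For each of the 3 receptors every DDR2-plus library was below every PSC library.

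In fold, Kdelr1 was 1.64-fold lower, Kdelr3 1.52-fold and Kdelr2 1.47-fold (log2 fold changes -0.71, -0.60 and -0.55 with SE 0.0853, 0.0697 and 0.0692; edgeR adjusted p = 3.4e-05, 2.52e-05 and 4.75e-05). They remained lower with library size alone, at -0.44, -0.33 and -0.28 on the log2 scale (edgeR adjusted p = 0.00152, 0.00101 and 0.00321). Ratios among the 3 receptors differed by 0.16 or less on the log2 scale and did not pass (exact permutation tests, adjusted p between 0.22 and 0.286), which does not show that they moved alike.

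A further motif, the core of the unfolded protein response element (UPRE), TGACGTGG on either strand, was in the windows of 3 members and of 0.82% of the genes of the table. Of the 3, Sec24d and Kdelr3 were lower in DDR2-plus and Sec23a did not pass, where 19.0% of all tested genes were lower and 20.1% higher. The ERSE-II form, ATTGG and CCACG with 1 base between them on either strand, was in the windows of 2 members, Herpud1, which was higher, and Dnajb11, which did not pass, and of 0.0536% of the genes of the table. The letters TGATGNAAT, a form of the site to which ATF4 and C/EBP factors bind, were in none of the 36 windows, with 0.981% of the genes of the table holding them. The matches are shown with short flanks, because they set genes of export and retrieval beside the chaperones, with the motif in capitals and in the direction of the motif.
Sec24d (UPRE core, chr3:123267462-123267485, plus strand): cgggcgccTGACGTGGcactagca
Kdelr3 (UPRE core, chr15:79516370-79516393, minus strand): ccgcgcggTGACGTGGcggggcgg
Sec23a (UPRE core, chr12:59011996-59012019, minus strand): ctccccttTGACGTGGcagaggcg
Herpud1 (ERSE-II, chr8:94386373-94386391, plus strand): gctgATTGGGCCACGttgg
Dnajb11 (ERSE-II, chr16:22857848-22857866, plus strand): ggcgATTGGCCCACGcctg

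The 250 bases before the start of Kdelr3 show the UPRE core, here on the opposite strand, close to the start of the gene. The capitals mark it.
Kdelr3 (chr15:79516158-79516407, plus strand): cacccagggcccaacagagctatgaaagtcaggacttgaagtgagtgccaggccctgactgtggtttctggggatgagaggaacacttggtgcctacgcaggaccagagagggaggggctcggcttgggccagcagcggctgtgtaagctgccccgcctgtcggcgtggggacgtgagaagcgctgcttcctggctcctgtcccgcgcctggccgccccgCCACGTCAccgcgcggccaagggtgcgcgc

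Other genes of the pathway, taken from lists of the translocon, glycosylation, export and retrieval machinery, were lower more often than higher. Of all tested genes, 19.0% were lower and 20.1% higher. Of 18 genes of the translocon and signal peptidase, which bring new chains into the ER and trim them, 10 were lower and 0 higher in DDR2-plus, with a median of -0.24. Tram1, a translocon partner, was 1.47-fold lower, at 236 ± 10.7 against 347 ± 25.9 CPM, Sec61b, a channel subunit, 1.41-fold, and Sec11a, the catalytic subunit of the signal peptidase, 1.35-fold (edgeR adjusted p of 6.47e-05 or less). Ssr3 was at 410 and 471 CPM without a call. Of 10 genes of the oligosaccharyltransferase, which adds sugar chains, 4 were lower and 1 higher, with Krtcap2 1.71-fold, Ddost 1.51-fold and Tusc3 1.28-fold lower, while Rpn2 did not pass at 388 and 425 CPM. Krtcap2 shares 15.7% of its exonic bases with another gene.

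Of 20 other genes of COPII and its cargo receptors, 8 were lower and 3 higher, beside 19.0% and 20.1% of all tested genes. Surf4, a receptor for soluble cargo, was at 582 ± 39.4 against 812 ± 20.2 CPM, 1.40-fold lower (edgeR adjusted p = 5.88e-05), Ergic3 was 1.44-fold and Lman1, a lectin receptor, 1.28-fold lower, and Tmed9 stood at 327 and 345 CPM without a call. Of 13 genes of COPI, the coat of the return route, 5 were lower and 0 higher, with Copz2 1.54-fold, Cope 1.42-fold and Arf1 1.26-fold lower, and Arf4 at 758 and 800 CPM without a call. With library size alone these 4 lists turned, to 4 lower and 5 higher for the translocon, 2 and 4 for the transferase, 2 and 6 for COPII and its receptors and 2 and 7 for COPI. All 15416 tested genes held 1538 lower and 5421 higher on that scale. Tusc3, Lman1 and Arf1 lost their calls there (edgeR adjusted p = 0.387, 0.194 and 0.371).

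**Figure D4:**
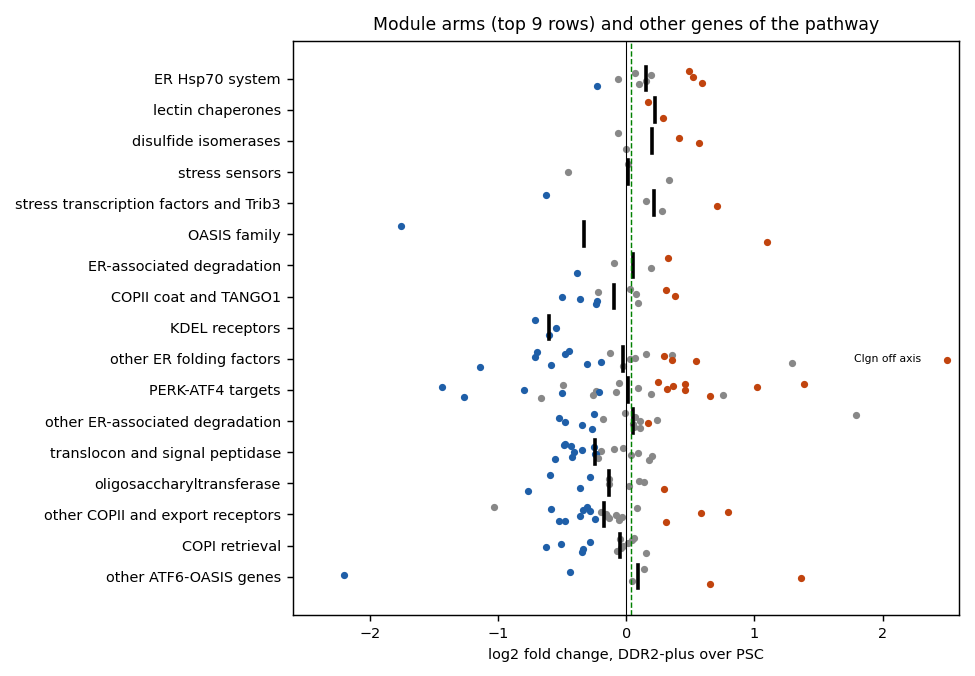
Log2 fold changes, DDR2-plus over PSC (x axis), of the tested genes of the 9 arms of the module and of 8 further lists of the pathway, with 1 point per gene, colours as calls (red higher, blue lower, grey none), a black bar as the median of each list and a dashed line as the median of all tested genes. The KDEL receptors have the lowest median, -0.60, and Clgn lies beyond the axis.

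Of 19 tested genes of other folding factors, 8 were lower and 4 higher, with a median of -0.03. The shares of all tested genes were 19.0% lower and 20.1% higher. Clgn, 1 of the 4 higher genes, was at 28.9 CPM in DDR2-plus 5 and 0.491 to 1.47 CPM in the other DDR2-plus libraries. It was at most 0.139 CPM in PSC. Txndc5, a disulfide isomerase, was at 440 ± 30.8 against 715 ± 38.2 CPM, 1.62-fold lower, Dnajc1, a membrane J-domain protein, 1.64-fold and Prdx4, an ER peroxiredoxin, lower by a log2 fold change of -0.59 (edgeR adjusted p of 5.5e-05 or less), and Erp44 stood at 141 and 153 CPM without a call. Of 15 other genes of ER-associated degradation, 5 were lower and 1 higher, with Selenos 1.39-fold, Erlec1 1.44-fold and Ube2g2 1.27-fold lower, and Os9 at 211 and 202 CPM without a call. Ube2g2 lost its call without DDR2-plus 4, PSC 2 or PSC 4 (edgeR adjusted p of 0.0519 to 0.0545). With library size alone the folding list held 5 lower and 8 higher genes and the degradation list 1 and 8. All 15416 tested genes held 1538 lower and 5421 higher on that scale, and Erlec1 and Ube2g2 lost their calls.

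The 22 targets of PERK and ATF4 went both ways, with 8 higher, 5 lower and a median of 0.01. So did all tested genes, with 20.1% higher and 19.0% lower. Atf3, a stress factor that also answers to other stimuli, averaged 494 ± 67.0 CPM against 189 ± 40.2 CPM and was higher by 2.61-fold (edgeR adjusted p = 1.8e-05). Nupr1, a small chromatin protein induced by stress, was 2.72-fold lower and Eif4ebp1, an inhibitor of cap-dependent translation, 2.41-fold lower (edgeR adjusted p of 1.11e-06 or less), while Aars, an aminoacyl-tRNA synthetase gene that shares 14.3% of its exonic bases, stood at 125 and 132 CPM without a call. Of 6 further genes of ATF6 and OASIS type or of their proteases, 2 were higher and 2 lower. Creb3l3 was 4.62-fold lower at 4.08 ± 1.49 against 18.9 ± 1.95 CPM, Creb3 1.36-fold lower (15.2% of its exonic bases shared) and Creb3l4, at 2.89 and 1.12 CPM, 2.57-fold higher (edgeR adjusted p = 1.48e-05, 0.000814 and 0.0175). Mbtps1, the protease that cleaves these factors in the Golgi, was at 274 and 266 CPM without a call. Creb3l4 lost its call with numbers 1, 2 and 4 only (edgeR adjusted p = 0.155).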

How the data were processed

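RNA of 5 DDR2-plus and 5 PSC libraries was amplified from 1 ng with a full-length template-switching kit, tagmented and sequenced paired-end for 50 cycles, per the labels' protocols. The authors deposited raw counts, whole numbers for each gene symbol. Per the submitters' processing notes, reads were placed on mm10 and DESeq was used; for aligner, counter and annotation: not given in the sources used here. Strand is not marked by such kits, so antisense reads cannot be told apart.

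Counts were tested with edgeR 4.0.16 under R 4.3.3 (quasi-likelihood, TMM factors, filterByExpr, no covariates, Benjamini-Hochberg over all 15416 tested genes, threshold 0.05). limma 3.58.1, DESeq2 1.42.0, other scalings, no filter, a replicate block and each library left out were the alternatives; the subset of numbers 1, 2 and 4, and DESeq2 without the type I collagen rows, were chosen after seeing the data. DESeq2 adjusted p-values are written to 3 digits and not below 1e-06. Standard errors are the log2 fold change over the root of F. Within-library ratios used 0.5 added counts and exact permutation tests. Exonic lengths and gene positions are GENCODE M21 (GRCm38), promoters RefSeq. In simulated counts over 15197 genes with 200 changed, edgeR recovered 70.1% of the genes changed 2-fold, while unchanged genes made up 6.11% of its calls. In the data 39.1% of tested genes were called, a far larger share, so these rates need not carry over.

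The members and all lists were chosen with earlier results of these data known. All 41 members are described; from each other list, up to 3 genes past the threshold with the smallest p and the most expressed gene without a call are named. Clgn, plotted beyond an axis, Lyz2 and the endothelial and osteoclast markers were named after their values were seen. Libraries of 1 group never agreed within sampling noise (lowest chi-square per degree of freedom 40.9).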

Additional observations from a re-analysis of the deposited data

Results flagged for a closer look

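In 102 groups of 5 libraries (41 genes and 10 ratios in both populations), 7 had a library whose gap to its nearest neighbour was over 0.71 of the range of the group; chance alone flags about 1 in 20 groups. PSC 3 stood apart in 3 of them. Hspa5 was at 770 CPM there, with 935 to 990 CPM in the other PSC libraries. Creb3l2 was at 35.5 CPM in PSC 3 and at 59.7 to 61.0 CPM in the others. Mia3 was at 161 CPM in PSC 3, above 132 to 137 CPM elsewhere in the group. Sec23b was at 61.4 CPM in PSC 4, over 54.4 to 55.6 CPM in the rest. Kdelr2 was at 408 CPM in PSC 5, under 455 to 464 CPM. In DDR2-plus 2, Sec24c was at 109 CPM, over 78.1 to 86.7 CPM in its group. The log2 ratio of Creb3l1 to Creb3l2 was 0.58 in DDR2-plus 3, where the other DDR2-plus libraries lay between -0.35 and -0.14.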

How the results depend on the processing

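Of the 23 members with a call, 14 kept direction and call in all 20 alternative settings and 17 in all but library size alone. With library size alone, 23 members were higher and 6 lower. Leaving out single libraries gave 9 to 13 higher and 10 to 11 lower members, and 5176 to 6020 called genes. Under library size alone these log2 fold changes changed sign: Dnajb11 0.20, Manf 0.040, Pdia3 0.20, P4hb 0.26, Syvn1 0.17, Sec24a 0.048, Sar1a 0.042, Mia3 0.031, Erp44 0.14, Aars 0.19, Ssr3 0.071, Rpn2 0.14, Tmed9 0.19 and Arf4 0.19. By construction, leaving out composition factors moves all genes one way. Uncalled genes near 0 also changed sign. P4hb was at 0.00296 with DESeq2 size factors in edgeR, 0.00295 with DESeq2 and 0.00272 with DESeq2 without the collagen rows. With numbers 1, 2 and 4 only, Hyou1 was at -0.078, Dnajb11 at 0.11, Atf6 at -0.091, Sec24b at -0.14, Tmed9 at 0.055 and Mbtps1 at -0.029.

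Without single libraries, P4hb ranged from -0.032 to 0.0089, Atf6 from -0.064 to 0.082, Sec23a from -0.057 to 0.074, Sec24b from -0.044 to 0.21 and Mbtps1 from -0.034 to 0.091. The log2 ratio differences ranged from -0.99 to -0.80 for Sec24d/Sec24c (adjusted p up to 0.0529), -0.77 to -0.51 for Sec24d/Sec24b, -0.37 to -0.20 for Sec24d/Sec24a and -0.38 to -0.26 for Sar1a/Sar1b; Sar1a/Sar1b, Sec24d/Sec24b and Sec24d/Sec24a passed without DDR2-plus 5 or PSC 5, without PSC 4 and without PSC 5. Same-numbered libraries correlated by only 0.0289 to 0.0532 in their deviations, although each DDR2-plus library correlated best with the PSC library of its own number. Sample titles carry the same numbers, 1 to 5, in both populations. The main test did not pair the libraries, and whether the numbers pair them was not settled. With the replicate block 13 members were higher, 10 lower and 5742 genes called (Eif2ak3 gained a call, at an edgeR adjusted p of 0.0363, and Mia3 and Ube2g2 lost theirs, at 0.0512 and 0.0571), and in the paired sign-flip test, which 5 pairs keep from passing, Sec24d/Sec24c (-0.90), Creb3l1/Creb3l2 (-2.90) and Sdf2l1/Sdf2 (0.58) had an adjusted p of 0.125. Depth limits Trib3 most, which had the lowest mean level of the members (4.36 and 3.60 CPM).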
